A study of Homo sapiens with 2 samples.

Results

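The 4 genes described here, AKAP12, PDE4B, PPP1R1A and ENSA, encode proteins that scaffold, break down or relay cyclic AMP signals or that restrain the serine/threonine phosphatases PP1 and PP2A. They were chosen by their gene symbols among the entries of 2 tables, 1 of higher and 1 of lower probe sets, that the authors deposited, so the difference between the arrays is what selected them, and that difference is given as a description with no test. They make up 4 of the 190 genes that carry a single symbol in those tables and hold 5 of the 244 listed probe sets, of which 2 are higher and 3 are lower. The samples were Hep3B cells, an established line from a human hepatocellular carcinoma, carrying either a short hairpin against caveolin-1 (shCav1) or a non-target control hairpin (shCtl), and both were grown in DMEM-HG medium. Each sample was measured once as total RNA on an Affymetrix HG-U133 Plus 2.0 array. A hairpin was thus present in both samples. Whether the cells were a single clone or a mixed population, how the hairpins were delivered and for how long they were present is not stated in the labels. The question was which transcripts differ between Hep3B cells with and without the caveolin-1 hairpin.

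Cyclic AMP is a small intracellular messenger made by adenylyl cyclases below G protein-coupled receptors. It releases the catalytic subunits of protein kinase A (PKA) from their regulatory subunits, while A-kinase anchoring proteins hold PKA at particular places in the cell and phosphodiesterases degrade cyclic AMP. PP1 and PP2A remove the phosphates that PKA and other kinases add, and small inhibitor proteins, themselves switched on by phosphorylation, hold both phosphatases in check. In liver, glucagon uses the cyclic AMP route to start glycogen breakdown, and PP1 opposes it. Caveolae, the membrane pits coated by caveolin-1, are known to gather receptors, G proteins and adenylyl cyclases.

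With 1 array per group, none of the differences below could be checked in a replicate or tested, and there are no p-values. Genes are instead described by size, with a limit of 2-fold between the arrays. The hairpin's target, CAV1, was at 6.61% and 7.38% of its shCtl signal at its listed probe sets, which matched the sample labels. Probe sets under 2-fold carry no gene name in the files, so the label of a hepatoma line could be set against a single listed marker of 16 hepatocyte and hepatoma genes. That marker was FGG, the fibrinogen gamma chain, with a signal of 263 in shCtl and 944 in shCav1. Of 19 marker genes of fibroblasts, endothelium and leukocytes none was listed past 2-fold, and their levels are unnamed in the files. Listed entries with several symbols or none were not searched for markers. Among probe sets past the brightness filter given below, 0.501% were at least 2-fold higher and 0.299% at least 2-fold lower. With shares this small, the marker counts say nothing about which cells were present. Because these are bulk samples, fewer cells expressing a gene and less of its RNA per cell cannot be told apart. An effect of lower CAV1 likewise cannot be told apart from any other difference between the 2 samples.

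In the shCav1 sample the signals of AKAP12 and ENSA were lower and those of PDE4B and PPP1R1A were higher than in shCtl. The direction was therefore mixed both among the cyclic AMP genes (the anchoring protein lower, the phosphodiesterase higher) and among the phosphatase inhibitors (the PP2A inhibitor lower, the PP1 inhibitor higher). All 5 listed probe sets passed the brightness filter, which kept a probe set when its brighter array reached a signal of 30.7, the median of all values. Among the 28128 probe sets kept, 0.501% were at least 2-fold higher and 0.299% at least 2-fold lower, which is 141 and 84 probe sets. This balance depends on the scaling, since centring on the hybridization spikes gave 102 higher and 142 lower. The tables from which the genes were chosen hold entries past this same limit, so nothing is read from these shares. The member nearest to the limit was AKAP12 at probe set 227530_at, with a 2.12-fold decrease, and no entry outside the tables has a gene name. Any further probe set that carries 1 of these symbols alone was therefore under 2-fold and is not described. Entries with several symbols or none were not matched to the members.

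AKAP12 (Entrez gene 9590), also called gravin or SSeCKS, is a large scaffold under the plasma membrane that binds PKA, protein kinase C and the beta-adrenergic receptor. At probe set 227530_at its signal was 264 in shCtl and 125 in shCav1, which is 47.1% of the control and a log2 difference of -1.09. At probe set 227529_s_at it was 69.1 in shCtl and 28.8 in shCav1, which is 41.7% and a log2 difference of -1.26. Both probe sets were lower in the shCav1 sample, and the mean log2 difference was -1.17 ± 0.13 (SD over 2 probe sets, a technical spread). Over the 23 genes that had more than 1 listed probe set, the median of this SD was 0.16. Such SDs leave out probe sets of the same gene under 2-fold, so they can look smaller than the full spread. The deposited alignments put both AKAP12 probe sets on the same stretch of the plus strand, chr6:151678864-151679671 (the genome build is not stated), so they read the same part of the transcript and are not separate evidence of its decrease. At 227529_s_at the shCav1 signal lay below the median shCtl signal of 30.6, where background makes up more of what is read.

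PDE4B (Entrez gene 5142), a phosphodiesterase that hydrolyses cyclic AMP, had 1 listed probe set, 203708_at. Its signal was 22.0 in shCtl and 48.5 in shCav1, a 2.20-fold increase and a log2 difference of 1.14. The control signal was below the array median and brighter than that of 41.4% of probe sets on that array, so the gene passed the brightness filter only through the shCav1 array. The authors' deposited table gives an alignment of chr1:66797686-66839942 on the plus strand.

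PPP1R1A (Entrez gene 5502) encodes inhibitor-1 of PP1, which inhibits the phosphatase once PKA has phosphorylated it and is annotated to glycogen metabolism in the deposited tables. Its listed probe set, 205478_at, had a signal of 19.2 in shCtl and 51.1 in shCav1. This is a 2.66-fold increase, or a log2 difference of 1.41, and it too passed the filter only through the shCav1 array, since the control signal was below the array median. The deposited alignment is chr12:54974042-54982280 on the minus strand.

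ENSA (Entrez gene 2029) encodes alpha-endosulfine, which blocks the B55 form of PP2A at entry into mitosis after the Greatwall kinase has phosphorylated it. Its listed probe set, 221487_s_at, had a signal of 313 in shCtl and 90.8 in shCav1, well above the array median on both arrays. The shCav1 value is 29.0% of the control, a log2 difference of -1.78, which was the largest difference among the 5 member probe sets. It held rank 8 of the 84 kept probe sets that were at least 2-fold lower, against ranks 32 and 65 for AKAP12. PPP1R1A held rank 61 and PDE4B rank 100 of the 141 that were at least 2-fold higher. The deposited alignments of 221487_s_at give a stretch on chromosome 1, chr1:150597497-150602052 on the minus strand, and a further one on chromosome 14, chr14:83158430-83159984 on the minus strand. The signal may therefore hold transcripts of both places, and the share of each was not tested.

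**Figure D1:**
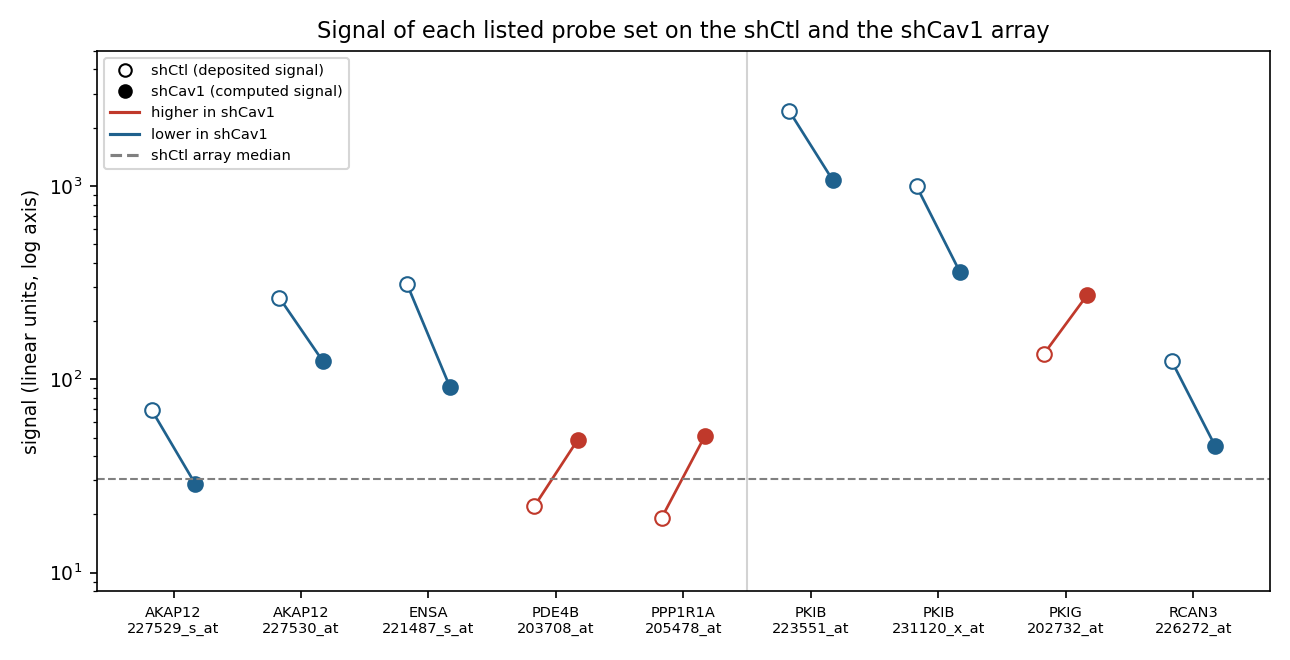
Signal of each listed probe set on the shCtl array (open circles, deposited values) and the shCav1 array (filled circles, computed from the deposited difference), on a log axis in linear signal units. The 5 probe sets of the members stand left of the grey line and those of PKIB, PKIG and RCAN3 right of it. PDE4B and PPP1R1A start at 22.0 and 19.2, under the dashed shCtl median of 30.6, while ENSA and AKAP12 227530_at stay above it on both arrays. Heights of different probe sets are not comparable with each other.

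The spread of differences at each member's brightness was taken from the 1000 probe sets nearest in mean log2 signal. The robust SD of the log2 difference there was 0.22 around ENSA, 0.22 and 0.20 around the AKAP12 probe sets, 0.21 around PDE4B and 0.19 around PPP1R1A. Since the members were listed because they passed 2-fold, they lie outside this spread by selection, and the values only describe how it varies with brightness.

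**Figure D2:**
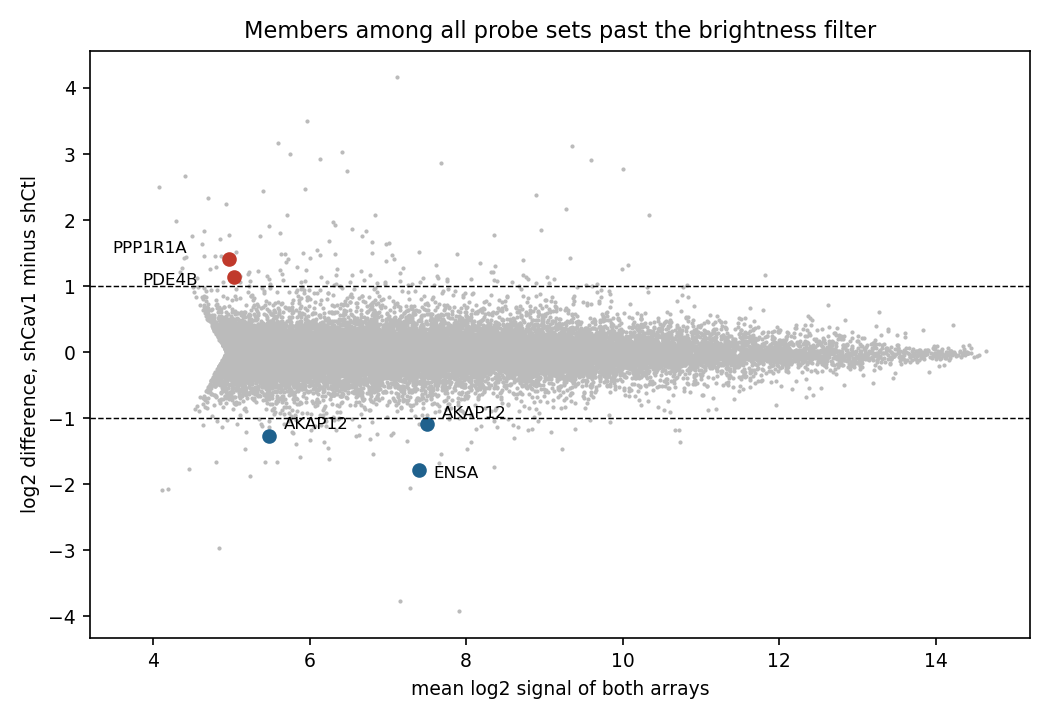
Log2 difference (shCav1 minus shCtl) against mean log2 signal for the 28128 probe sets past the brightness filter (grey points), with the 5 member probe sets in colour and dashed lines at 2-fold. ENSA and AKAP12 227530_at lie in the middle of the brightness range at -1.78 and -1.09, while PDE4B and PPP1R1A lie near the dim end at 1.14 and 1.41.

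The remaining genes of the pathway were taken from 9 lists with 211 different genes, and 7 of these were listed past 2-fold, 3 higher and 4 lower, the members included. In 24 phosphodiesterases PDE4B was the listed gene, in 21 A-kinase anchoring proteins AKAP12, in 34 PP1 subunits PPP1R1A, and in 31 PP2A subunits and regulators ENSA. No gene was listed among 10 adenylyl cyclases, 21 genes of cyclic AMP-responsive transcription, and 25 G proteins, receptors and regulators at adenylyl cyclase. Listed entries with several symbols or none were not searched for genes of the lists. These counts stand beside the 0.501% of kept probe sets that were higher and the 0.299% that were lower, but they are counts of genes, of which 190 were listed in all. The lists were chosen with the members known, so nothing particular to them is read from the counts. They carry no test, and no list median can be set beside that of all probe sets, because differences under 2-fold have no gene names here.

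Of the 3 other listed genes, 2 encode PKA inhibitors, and these differed in opposite directions. PKIB, a small protein that binds and blocks the catalytic subunit of PKA, was lower at both listed probe sets. At 223551_at the shCtl signal was 2442 and the shCav1 signal 1076, a log2 difference of -1.18. At 231120_x_at they were 994 and 358, a log2 difference of -1.47. The mean over both was -1.33 ± 0.20 (SD over 2 probe sets, technical). Unlike those of AKAP12, their deposited alignments, chr6:123038704-123047035 and chr6:123047062-123047517, do not overlap. The stretches are adjacent and were read from the same RNA samples, so they too are not independent evidence of a decrease. PKIG, another inhibitor of the PKA catalytic subunit, was higher in shCav1, with a signal of 136 in shCtl and 274 in shCav1, a 2.02-fold increase at 202732_at. In the list of 15 PKA and EPAC genes these 2 were the listed ones, 1 lower and 1 higher. RCAN3, of a family that regulates the calcium-dependent phosphatase calcineurin, was at 36.5% of its control at 226272_at, from 124 to 45.4, and was the listed gene among 30 other serine/threonine phosphatase genes.

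By likeness of the log2 difference alone, over this 1 pair of arrays, the 2 listed probe sets nearest to each member's brightest listed probe set were taken. They were of SFRS15 (-1.09) and CAPS (-1.09) for AKAP12 at 227530_at, and of NOTCH2 (1.14) and CNTN3 (1.14) for PDE4B. For PPP1R1A they were of SCUBE3 (1.41) and ASXL3 (1.41), and for ENSA of FAR2 (-1.77) and AK4 (-1.74). Each is a single probe set picked for its match. The mean over all listed probe sets was -1.31 for CAPS, -1.62 for FAR2 and -1.48 for AK4. The FAR2 probe set had a shCav1 signal of 11.9, which is dim.

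Cyclic AMP also acts on transcription, through the factor CREB, which binds the cyclic AMP response element TGACGTCA and its half-site TGACG. Both were searched on both strands in RefSeq's promoter windows of GRCh38.p14, each 300 bases long, with 250 bases before and 50 after an annotated start. The half-site is part of the full element. Of all 35116 windows, 24.6% held the half-site and 1.85% the full element. ENSA held a half-site in both of its windows, while AKAP12 held none in 3 windows and PDE4B none in 6. PPP1R1A had no window to search. Among the other listed pathway genes PKIB held a half-site in 2 of 3 windows, PKIG in 0 of 2 and RCAN3 in 0 of 3. The half-site was in 4 of these 19 windows, beside 24.6% of all windows, so these counts show no excess of it. The full element was in none of the 19. The windows of ENSA and the window of PKIB with the most half-sites are shown because they hold the matches, which are in capitals as CGTCA, the half-site read on the opposite strand. A match describes these letters and shows neither a bound site nor a cause.

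ENSA chr1:150629563-150629862, minus strand: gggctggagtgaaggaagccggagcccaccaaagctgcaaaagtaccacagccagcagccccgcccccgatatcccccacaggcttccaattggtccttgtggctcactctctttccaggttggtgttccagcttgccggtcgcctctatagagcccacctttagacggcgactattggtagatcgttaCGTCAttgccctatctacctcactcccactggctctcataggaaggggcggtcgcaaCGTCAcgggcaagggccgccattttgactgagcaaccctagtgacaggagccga
ENSA chr1:150629090-150629389, minus strand: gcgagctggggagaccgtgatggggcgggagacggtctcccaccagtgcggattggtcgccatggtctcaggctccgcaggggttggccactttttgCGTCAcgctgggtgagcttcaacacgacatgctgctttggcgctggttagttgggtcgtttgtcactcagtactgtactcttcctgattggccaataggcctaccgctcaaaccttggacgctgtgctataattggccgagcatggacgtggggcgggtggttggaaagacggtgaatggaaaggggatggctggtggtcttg
PKIB chr6:122471671-122471970, plus strand: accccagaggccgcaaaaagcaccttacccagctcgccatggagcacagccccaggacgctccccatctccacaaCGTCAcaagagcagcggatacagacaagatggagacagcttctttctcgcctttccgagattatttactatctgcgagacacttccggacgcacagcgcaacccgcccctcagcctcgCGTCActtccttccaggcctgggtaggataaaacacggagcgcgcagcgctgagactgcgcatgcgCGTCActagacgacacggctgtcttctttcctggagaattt

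In the first ENSA window the matches begin 61 and 4 bases before the annotated start, and in the other ENSA window 153 bases before it. In the PKIB window they begin 175 and 57 bases before the start, with another just after it. The array reads total signal per probe set and does not tell which of these starts was used.

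Another scaling of the arrays moved all members by the same amount, and their distance to the 2-fold limit changed with it. The 18 probe sets for bacterial hybridization spikes all read higher in the shCav1 sample, with log2 differences from 0.07 to 0.25 and a median of 0.14. With differences centred on these spikes, PDE4B stood at 1.004 on the log2 scale, at the 2-fold limit, and PPP1R1A at 1.27. The same centring put ENSA at -1.92 and AKAP12 at -1.22 and -1.40. PKIG was then under the limit, with a log2 difference of 0.88.

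A pseudocount of 16 added to both signals, which shrinks differences of dim probe sets, left ENSA past 2-fold at -1.62 on the log2 scale. Under it PDE4B was at 0.76, PPP1R1A at 0.93 and AKAP12 at -0.996 and -0.93, all under 2-fold. Median centring and a loess curve left all 5 probe sets past 2-fold.

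**Figure D3:**
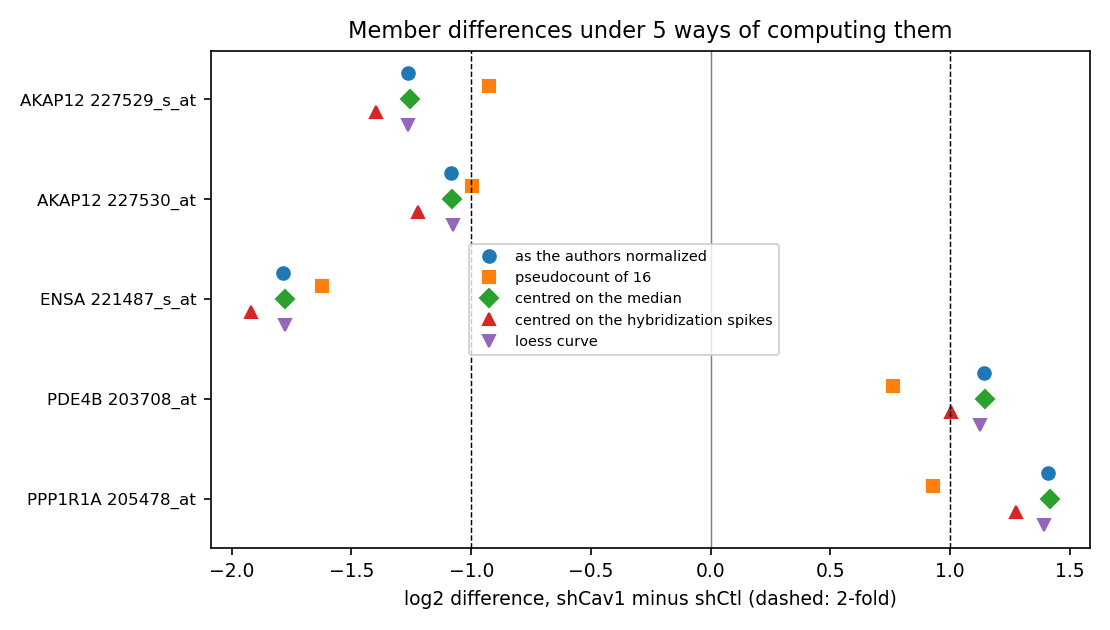
Log2 difference (shCav1 minus shCtl) of the 5 member probe sets as the authors normalized the arrays and under 4 alternatives, with dashed lines at 2-fold. The ENSA points all lie past the line, between -1.92 and -1.62, while the pseudocount moves the other 4 probe sets inside it.

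Control transcripts read at both ends differed between the arrays as well. For the actin control AFFX-HSAC07/X00351 the log2 difference was -0.88 for the 5′ probe set and -0.22 for the 3′ probe set, and for the GAPDH control AFFX-HUMGAPDH/M33197 it was -0.24 and -0.05. The part of this in the lower signals of AKAP12, ENSA and the other lower genes described here was not tested.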

How the data were processed

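Total RNA of 1 shCav1 and 1 shCtl sample, grouped by title, was measured on 1 array each. The processing tool is RMA, per the submitters' processing notes; no version is stated. The deposited series matrix holds log2 values, which the authors centred for every probe set so that both samples mirror each other around 0 and only their difference is kept. The authors' deposited tables give, for each listed probe set, a log2 difference, a fold ratio (larger over smaller) and a signed fold score. Their log2 values matched the series values within 2e-07 at all 244 entries. The deposited linear signal intensity of the control column, mapped by its name, gave shCtl levels. That table has 1 further column, whose name fits neither label, and it was left out. The shCav1 levels are the shCtl signal times the fold, which takes both tables to be on 1 scale. The number of arrays limits the precision of every value.

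The 62 control probe sets were left out of 54675. A probe set was kept when its brighter array reached the median of all values. Entrez identifiers were matched to RefSeq for 217 of the 244 entries to match gene lists. Promoter windows are RefSeq's, GRCh38.p14. They held AKAP12, PDE4B and ENSA, so 3 of the 4 members matched. Alternatives were other brightness filters, fold limits of 1.5 and 3, a pseudocount of 16, centring on the median or on the spikes, and a loess curve (span 0.3). The counting was tested on simulated data. Named genes were the members, CAV1, listed genes of the lists, and the 2 listed probe sets nearest to each member. The members, lists and rules were chosen with earlier results of these data known. The comparison with probe sets of like brightness and the promoter search were chosen after seeing the data. Python 3.11.15, pandas 2.3.3 and statsmodels 0.14.6 were used.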

Additional observations from a re-analysis of the deposited data

How the results depend on the processing

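With a pseudocount of 16 the log2 differences were -0.93 and -0.996 for AKAP12, 0.76 for PDE4B and 0.93 for PPP1R1A, which left 0 higher and 1 lower member probe set past 2-fold, and 0 higher and 3 lower genes of the pathway lists. The pseudocount is close to the control signals of PDE4B and PPP1R1A. Over all probe sets it gave 91 higher and 49 lower instead of 141 and 84. A brightness filter at the 75th percentile gave 79 higher and 43 lower, with 0 higher and 2 lower member probe sets and 1 higher and 3 lower pathway genes. At a 3-fold limit there were 42 higher and 16 lower over all, 0 higher and 1 lower among the members, and 0 higher and 1 lower gene of the pathway lists. At 1.5-fold there were 552 higher and 578 lower over all, and members and lists have no value there, because such probe sets are unnamed. Centring on the hybridization spikes gave 102 higher and 142 lower over all, and left 2 higher and 3 lower member probe sets and 2 higher and 4 lower pathway genes. No paired analysis was possible because there is only 1 shCav1 and 1 shCtl sample. Dimness limits PDE4B, PPP1R1A and AKAP12 227529_s_at, each under the median shCtl signal on 1 of the arrays.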

Other observations

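Further listed genes, of G protein-coupled receptor signalling and of phosphatases other than PP1 and PP2A, were found by annotation terms in the deposited tables. The terms were chosen after the values were seen. LPAR3, a receptor for lysophosphatidic acid that couples to G proteins, was at 38.9% of its control, with a signal of 117 in shCtl and 45.5 in shCav1. ADRBK2, a kinase that phosphorylates active G protein-coupled receptors and is now named GRK3, was at 40.4%, from 172 to 69.3. Both were lower in the shCav1 sample. PTPRS, a receptor-type tyrosine phosphatase, was 2.92-fold higher, from 40.0 to 117. PTPRD, of the same family, was 2.30-fold higher, from 13.3 to 30.7, and INPP4B, a phosphoinositide phosphatase, was 2.19-fold higher, from 6.04 to 13.3. INPP4B and, narrowly, PTPRD stayed under the brightness filter on both arrays, so their folds are less certain than that of PTPRS. These values have no replicate check.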
